A study of Mus musculus with 2 samples.

Results

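The imprinted growth genes are 10 genes that are expressed mainly from the copy inherited from 1 parent and that set fetal growth. They were found by symbol among the 32285 genes counted: Igf2, H19, Igf2r, Dlk1, Meg3, Peg3, Mest, Grb10, Plagl1 and Cdkn1c, with all 10 listed once. Their UMI counts (unique molecular identifiers, 1 per captured transcript) were read in single cells sorted for eYFP, the label left by Isl1-Cre in cardiopharyngeal mesoderm and other Isl1-expressing lineages. Cells came from mouse embryos at E13.5, and the tissue is labelled as pharyngeal arch. The authors' methods describe a wider dissection of the upper body, with the tissues above the liver. The control library (Isl1-Cre;R26R-eYFP) and the mutant library (Isl1-Cre;R26R-eYFP;Pik3caH1047R) were each made from 3 pooled embryos. Both genotypes carry Isl1-Cre and the reporter on a mixed C57BL/6J and ICR background. The mutant adds a Cre-dependent activated p110α, the H1047R form of the PI3K catalytic subunit, in the same lineage. Isl1-Cre marks several lineages, so muscle, neurons, epithelium and heart cells were sorted together with endothelium. The mutant library also held 47 cells with 6 of 6 hepatoblast markers raised, a liver type with 0 cells in the control library.

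After filtering, 2783 control cells with 63153191 UMIs and 3489 mutant cells with 69717583 UMIs were used. With 1 library per genotype there is no replicate, so no test was possible, and genotype cannot be told apart from differences between pools of embryos. Levels are UMIs per 1000000 UMIs of a cell class (CPM). Ratios are log2 of mutant over control, and every interval is a 95% interval that covers counting error only. Cells were grouped into classes by marker genes, and 7 classes with at least 50 cells in each library were compared: endothelial cell (EC)-like, mesenchyme-like, branchial muscle-like, epithelium-like, neuron-like, cardiomyocyte-like and mesothelium-like. Markers raised at least 2-fold over the other cells numbered 12 of 12 for the EC-like class and 9 of 9 for the cardiomyocyte-like class, while the 3 branchial muscle-like clusters each raised 5 to 7 of 10. Of the kept cells, 95.5% in the control library but 33.6% in the mutant library were female-like by Xist and Y-linked transcripts, and 12 kept barcodes occurred in both libraries. The counts do not separate the parental copies, so loss of imprinting cannot be read from them.

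The 10 genes are grouped here by the parental copy that is expressed. Igf2, a fetal insulin-like growth factor, Dlk1, a membrane protein of the Notch ligand family, the zinc finger proteins Peg3 and Plagl1, and Mest, a hydrolase-like protein, are expressed from the paternal copy. Igf2r, which takes up and degrades Igf2, Grb10, an adaptor that dampens insulin and IGF receptor signaling, Cdkn1c, a cyclin-dependent kinase inhibitor known as p57, and the noncoding RNAs H19 and Meg3 are expressed from the maternal copy in most tissues. Paired genes share control regions: Igf2 and H19 use common enhancers, and Dlk1 and Meg3 share an imprinted domain. Receptors of the insulin and IGF family signal through PI3K, the enzyme activated in the mutant.

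In the GRCm38 annotation Igf2 (chr7:142650766-142666816) and H19 (chr7:142575529-142578143) lie on the minus strand 72622 bases apart, and Cdkn1c (chr7:143458339-143461050) lies on the same chromosome and strand. Dlk1 (chr12:109452823-109463336) and Meg3 (chr12:109541001-109571726) lie on the plus strand 77664 bases apart. Peg3 (chr7:6703892-6730431), Grb10 (chr11:11930508-12038683) and Igf2r (chr17:12682406-12769664) are on the minus strand, and Mest (chr6:30723547-30748465) and Plagl1 (chr10:13060504-13131694) on the plus strand. Airn overlaps Igf2r and Copg2 overlaps Mest on the opposite strand, and how reads in such overlaps or in introns were assigned is not given in the sources used here.

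Promoter sequence is shown for 3 genes that the results turn on: Dlk1 and its domain partner Meg3, both lower in muscle and mesenchyme of the mutant, and Peg3, higher in mutant EC-like cells. The sequences are RefSeq promoters of GRCm38.p6, 5′ to 3′ on the gene's strand and ending before the first transcribed base. They are Dlk1 at chr12:109452573-109452822 on the plus strand, Meg3 at chr12:109540746-109540995 on the plus strand and Peg3 at chr7:6730432-6730669 on the minus strand.
Dlk1: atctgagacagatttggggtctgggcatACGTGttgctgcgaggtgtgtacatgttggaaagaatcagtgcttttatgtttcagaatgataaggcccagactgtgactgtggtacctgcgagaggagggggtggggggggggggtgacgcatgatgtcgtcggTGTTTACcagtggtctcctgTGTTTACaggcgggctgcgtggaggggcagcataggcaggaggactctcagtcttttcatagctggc
Meg3: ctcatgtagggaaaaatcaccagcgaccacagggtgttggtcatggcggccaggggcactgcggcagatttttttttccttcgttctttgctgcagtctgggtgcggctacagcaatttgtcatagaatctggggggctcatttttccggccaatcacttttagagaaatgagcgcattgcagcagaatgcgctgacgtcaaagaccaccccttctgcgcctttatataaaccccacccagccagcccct
Peg3: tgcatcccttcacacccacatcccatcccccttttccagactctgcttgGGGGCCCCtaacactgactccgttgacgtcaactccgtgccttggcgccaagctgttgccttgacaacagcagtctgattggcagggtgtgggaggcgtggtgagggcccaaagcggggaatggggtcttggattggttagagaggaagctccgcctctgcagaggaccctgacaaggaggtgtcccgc
Capitals mark matches on either strand to any of 4 motifs that were searched: ACGTG, the core bound by hypoxia-inducible factors; GTAAACA, a forkhead motif bound by FOXO factors, which PI3K signaling keeps out of the nucleus; CANNTG, the E-box of muscle regulatory factors; and GGGGCCCC, a motif of the Plagl1 family. The Dlk1 window held 2 matches to GTAAACA, both on the minus strand, and 1 to ACGTG. Of 32851 promoter windows of 250 bases in the table, 3.17% held GTAAACA and 16.6% held ACGTG at least 1 time. The Meg3 window shown held none of the 4 motifs, and the Peg3 window held 1 match to GGGGCCCC, a motif in 0.889% of windows. CANNTG was in 66.2% of windows and in none of the 3 shown, and CACGTG would match both CANNTG and ACGTG. Another RefSeq start of Meg3, with a window at chr12:109545148-109545397, is not shown, and that window held 1 match to CANNTG. A match describes the letters only, and binding was not measured. Promoter windows were in the table for 8 of the 10 genes, and H19 and Cdkn1c were not among them.

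The control library shows how unevenly the 10 genes were distributed over cell types (the plot of levels by class). Cdkn1c was highest in branchial muscle-like cells at 5741 CPM (95% interval 5710 to 5771), with mesothelium-like cells next at 1740 CPM, and lowest in cardiomyocyte-like cells at 406 CPM. Mest was highest in EC-like cells at 2777 CPM (2720 to 2835) and lowest in neuron-like cells at 221 CPM. Dlk1 ran from 2925 CPM in mesenchyme-like cells to 82.3 CPM in EC-like cells, where 54.7% of the UMIs lay in 8 cells among those with the highest doublet scores.

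Neuron-like cells were lowest for Igf2 (138 CPM), H19 (92.8 CPM), Igf2r (50.5 CPM) and Grb10 (224 CPM), whereas Meg3 in them, at 1014 CPM, did not differ from mesenchyme-like cells, at 1025 CPM, beyond counting error. Grb10 was the most even gene, with 3.53-fold between its highest and lowest classes. Igf2 lay between 869 and 1131 CPM in mesothelium-like, mesenchyme-like, EC-like, cardiomyocyte-like and branchial muscle-like cells. From mesenchyme-like through EC-like and cardiomyocyte-like to branchial muscle-like cells, the intervals of neighbours in the Igf2 order overlapped.

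**Figure D1:**
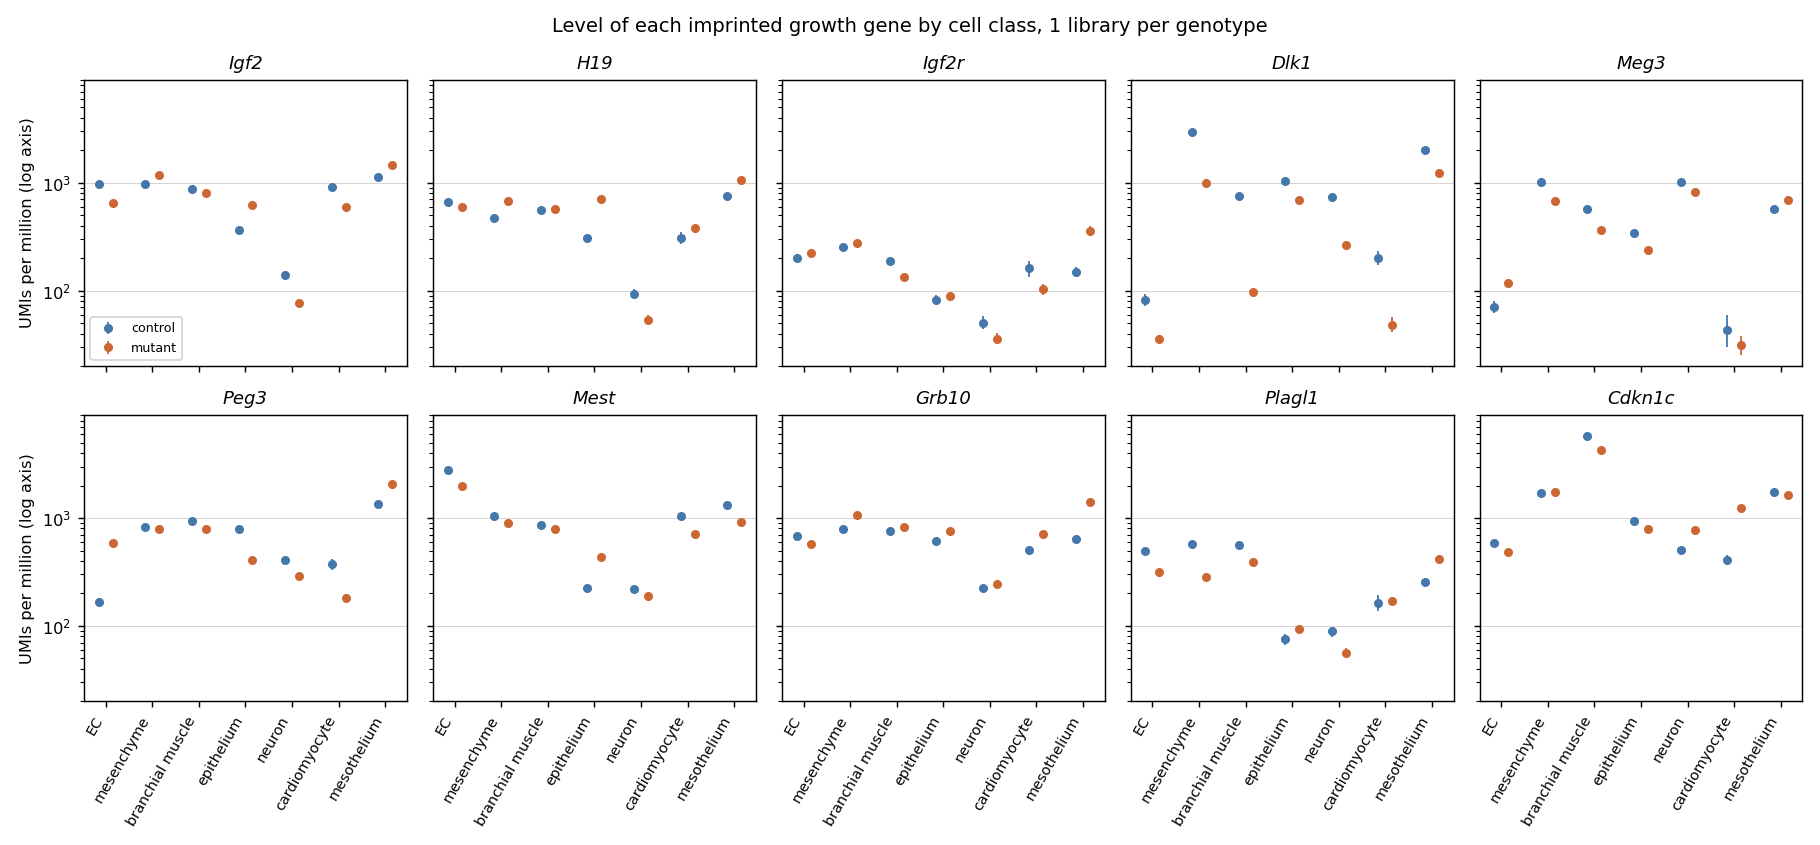
Level of each of the 10 genes (CPM, log axis) in 7 cell classes of the control library (blue) and the mutant library (orange), with exact Poisson 95% intervals that are often smaller than the points. Cdkn1c peaks in branchial muscle-like cells at 5741 CPM in the control, Mest peaks in EC-like cells in both libraries, and Dlk1 is lower in the mutant in all 7 classes.

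The class with the highest level was the same in both libraries for 5 of the 10 genes: Igf2, H19 and Peg3 (mesothelium-like), Mest (EC-like) and Cdkn1c (branchial muscle-like). For Igf2r, Dlk1, Grb10 and Plagl1 the top class was mesenchyme-like in the control and mesothelium-like in the mutant. For Meg3 it was mesenchyme-like and neuron-like. The top interval overlapped that of the next class for Meg3 in the control and for Plagl1 in both libraries. For Plagl1 the next class was branchial muscle-like, with 563 CPM against 572 in the control and 390 CPM against 416 in the mutant. For Meg3 the next class of the control was neuron-like, with 1014 CPM against 1025, and neuron-like was the top class of the mutant. A change of top class is thus not shown for Meg3 or Plagl1. Over the 7 classes, Spearman's rho between the libraries, given as a description, was highest for Dlk1, 0.929, and lowest for H19, 0.536. For Dlk1 the order over classes was thus much alike although its level differed most.

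Free RNA in the droplets sets a lower limit on what these levels can show. Macrophage-like cells, a blood type not expected to express these genes strongly, held an Igf2 UMI in 25.5% of control and 19.5% of mutant cells at 5000 UMIs per cell, with 50.9 and 37.0 CPM at full depth. Their median depth was 25602 and 27400 UMIs, above that of most compared classes. In these cells the ratio of Igf2 was -0.46 (-0.99 to 0.05) and that of Igf2r 0.07. Cdkn1c was 152 and 29.4 CPM (-2.37), Plagl1 21.6 and 5.88 CPM (-1.88), and the ratios of Peg3 and H19 were -1.29 and -1.04. For Mest, Meg3, Grb10 and Dlk1 the ratios were -1.19, -1.15, -1.10 and -1.09, and the Meg3 interval (-2.72 to 0.15) included 0. The macrophage-like level was thus lower in the mutant library for most of the 10 genes. Its part in the ratios of the classes was not tested. Erythroid-like cells, another blood type, held a higher level of every gene in the set than macrophage-like cells in both libraries. The part of free RNA in that level was not tested. The shares of cells below are set against macrophage-like cells alone. Peg3, Mest, Grb10 and Cdkn1c exceeded the macrophage-like share of cells, with intervals apart, in 7 of 7 classes of both libraries. Igf2 and H19 did so in 6 of 7, and the exception was the neuron-like class, where 32.6% of control and 32.7% of mutant cells held an Igf2 UMI. Dlk1 did so in 5 classes of the control and 4 of the mutant, where branchial muscle-like cells, at 13.4%, no longer did. Its share was at the macrophage-like level in EC-like cells (13.9% of control cells against 13.8% of macrophage-like cells) and in cardiomyocyte-like cells (12.96%). By summed level the intervals were apart. Control EC-like and cardiomyocyte-like cells held 82.3 CPM (72.8 to 92.8) and 201 CPM (172 to 233), against 19.6 CPM (14.5 to 25.9) in macrophage-like cells. In the mutant the levels were 35.8 and 48.3 CPM against 9.25 CPM (4.62 to 16.5). The part of free RNA in these Dlk1 values was not tested.

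Across the 70 pairs of gene and class, 18 were lower and 11 higher in the mutant by more than 1.5-fold with a counting interval that excluded a log2 ratio of 0, and 41 were neither (the grid of ratios). Among genes of at least 20 CPM, in EC-like cells 2 of the 10 were higher (against 7.29% of all genes) and 2 lower (10.3%). In mesenchyme-like cells none was higher (6.20%) and 3 were lower (5.33%), and in branchial muscle-like cells none was higher (6.24%) and 2 were lower (5.06%). In epithelium-like cells 3 were higher (6.69%) and 2 lower (7.12%). In neuron-like cells 1 was higher (4.37%) and 4 lower (13%), in cardiomyocyte-like cells 1 was higher (8.60%) and 4 lower (16.1%), and in mesothelium-like cells 4 were higher (21.8%) and 1 lower (11.0%). With 10 genes a class, a single gene moves the share by a large step, and the counts were not tested against these shares.

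The paternally expressed genes gave 14 lower and 5 higher of 35 pairs, and the maternally expressed genes 4 lower and 6 higher of 35, where by class 4.37 to 21.8% of all genes tested were higher and 5.06 to 16.1% lower. Dlk1 alone made up 7 of the 14. The median log2 ratio of the 10 genes ran from -0.50 in cardiomyocyte-like cells to 0.44 in mesothelium-like cells, where the medians over all genes tested were -0.03 and 0.06.

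**Figure D2:**
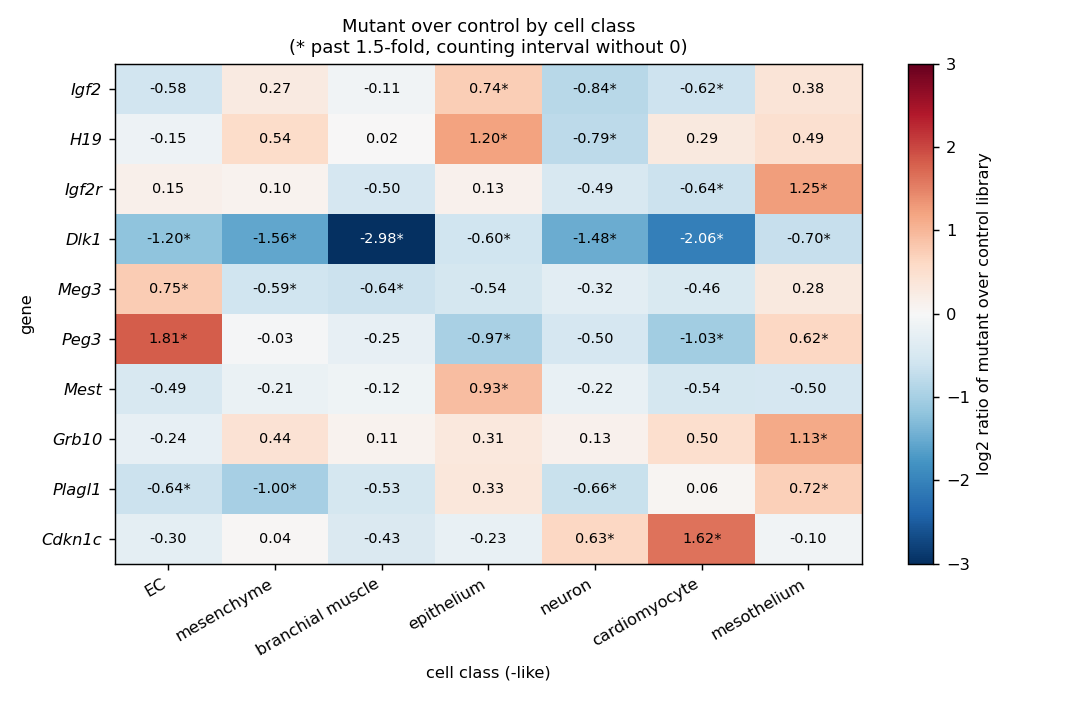
Grid of log2 ratios of mutant over control for the 10 genes (rows) in 7 cell classes (columns), where blue is lower and red is higher in the mutant library and an asterisk marks values past 1.5-fold with a counting interval without 0. The Dlk1 row is blue in all 7 columns, down to -2.98 in branchial muscle-like cells, and Peg3 in EC-like cells is 1.81.

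Dlk1 differed most between the libraries and was the one gene past 1.5-fold in the same direction in all 7 classes, a count that was 6 or 7 under the alternatives run. EC-like and cardiomyocyte-like cells, with shares of cells at the macrophage-like level, are among the 7. In branchial muscle-like cells it was 761 CPM in the control (17850 UMIs) and 96.4 CPM in the mutant (1880 UMIs), a log2 ratio of -2.98 (-3.05 to -2.91). In mesenchyme-like cells it was 2925 and 989 CPM (-1.56, -1.59 to -1.53). In both classes the mutant level lay far below the counting interval of the control.

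Neuron-like cells held 737 CPM in the control and 265 CPM in the mutant (-1.48), mesothelium-like cells 2021 and 1242 CPM (-0.70), and epithelium-like cells 1041 and 688 CPM (-0.60). The ratio in epithelium-like cells is close to the 1.5-fold limit and joins unlike clusters. At resolution 0.8, the largest epithelium-like cluster held 561 and 235 CPM (-1.26), whereas a cluster of 35 control and 30 mutant cells led by Cga, Tshb and Pou1f1, genes of the anterior pituitary, held 4385 and 4980.5 CPM (0.18).

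In EC-like cells, 82.3 and 35.8 CPM of Dlk1 (-1.20) came with a share of cells at the macrophage-like level. Of the mutant Dlk1 UMIs there, 64.8% lay in 28 cells among those with the highest doublet scores. In cardiomyocyte-like cells (201 and 48.3 CPM), 10 such cells held 81.5% of the mutant UMIs. Erythroid-like cells went the other way, with 183 CPM in the control and 385 CPM in the mutant and a Dlk1 UMI in 25.0% and 47.3% of cells. Macrophage-like cells held 19.6 and 9.25 CPM.

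By summed level, the Dlk1 difference was not the same in each branchial muscle-like cluster. Muscle cluster 1 was led by Msc, Myf5 and Pax7, transcription factors of muscle progenitors, and muscle cluster 7 by Car9 and Pax7. Cluster 7 was shallower, with median depths of 9892 UMIs in the control and 7803 in the mutant, against 32315 and 27785 in cluster 1. Muscle cluster 8 was led by Myh3, the embryonic myosin heavy chain, and by Mymk and Mymx, the fusion proteins of differentiating myocytes.

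Dlk1 in cluster 1 was 822 CPM in the control and 33.8 CPM in the mutant, 24.3-fold lower (log2 ratio -4.60, -4.73 to -4.47). In cluster 7 it was 890.1 and 46.9 CPM (-4.25, -4.58 to -3.93). In cluster 8 it was 425 and 421 CPM (-0.01, -0.12 to 0.09). The intervals of clusters 1 and 7 are far from that of cluster 8. The summed level thus differed between the libraries beyond counting error in clusters 1 and 7 and not in cluster 8.

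Counts of cells show a different side of the same data (the plot of the share of cells with Dlk1). At 5000 UMIs per cell, 79.5% of control and 11.4% of mutant cells of cluster 1 held a Dlk1 UMI (Clopper-Pearson 75.8 to 82.8% and 8.82 to 14.5%), and without thinning 96.5% and 31.2%. In cluster 7 the thinned shares were 76.4% and 12.5%. The mutant shares of both clusters had intervals that overlapped that of the 41 mutant macrophage-like cells, 2.44% (0.0617 to 12.9%). By level the intervals were apart, with 33.8 CPM (30.9 to 37.0) in mutant cluster 1 against 9.25 CPM (4.62 to 16.5) in mutant macrophage-like cells, at median depths of 27785 and 27400 UMIs. The part of free RNA in the mutant level was not tested. In cluster 8 they were 62.0% (54.5 to 69.0%) and 22.3% (15.5 to 30.4%), although the summed levels did not differ beyond counting error.

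The 13 mutant cells of cluster 8 with the most Dlk1, of 130 cells, held 86.1% of its Dlk1 UMIs, against 40.3% in the top 19 of 184 control cells. So in differentiating muscle the mutant Dlk1 transcripts lay in few cells with high counts, up to 28 UMIs of 5000 against 11 in the control. High doublet scores accounted for 4.07% of the mutant Dlk1 UMIs in cluster 8.

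**Figure D3:**
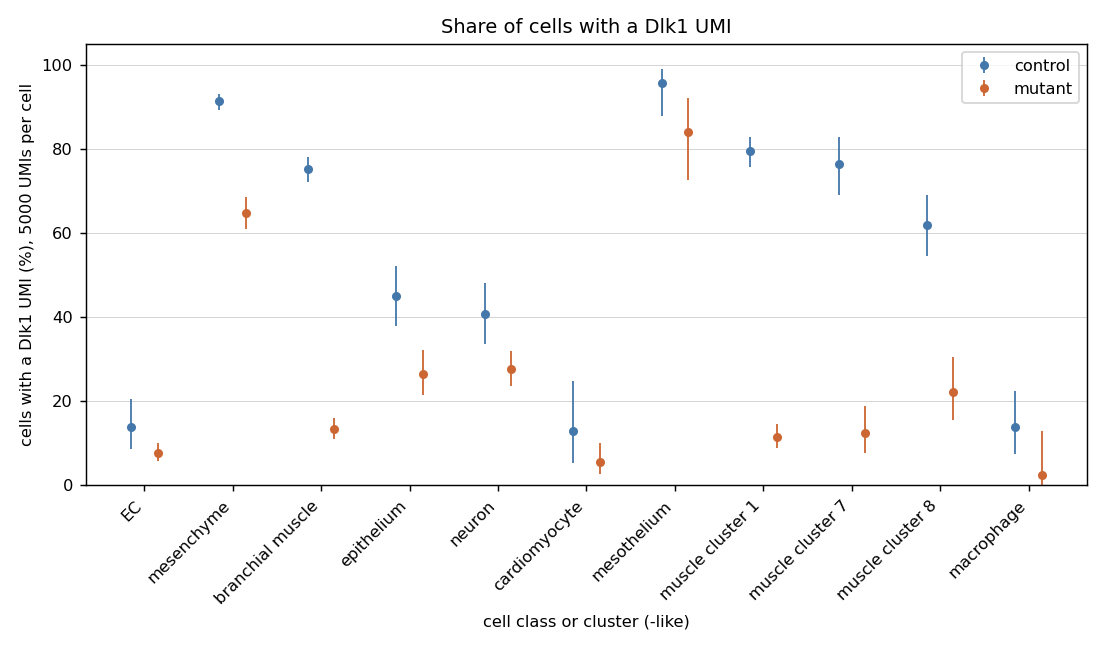
Percent of cells with at least 1 Dlk1 UMI after thinning every cell to 5000 UMIs, for 7 classes, the 3 branchial muscle-like clusters and macrophage-like cells, control in blue and mutant in orange, with Clopper-Pearson 95% intervals. In muscle cluster 1 the share is 79.5% in the control and 11.4% in the mutant; EC-like and cardiomyocyte-like cells lie at the macrophage-like level.

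Clusters of mesenchyme and neurons also differed from each other in Dlk1. Mesenchyme-like cluster 0, led by Twist1, Prrx1 and Pdgfra, held 3972 CPM of Dlk1 in the control and 966 CPM in the mutant (-2.04, -2.07 to -2.01). Cluster 5, led by Wnt2, Tbx4 and Tcf21, genes of lung and foregut mesenchyme, held 1587 and 1138 CPM (-0.48, -0.55 to -0.41). Cluster 5 had 344 control and 61 mutant cells and cluster 0 had 610 and 598, so the mesenchyme-like sums also mix the clusters in unlike proportions. Neuron-like cluster 10, led by Neurod1 and by the sodium channels Scn9a and Scn10a, held 293 and 14.6 CPM (-4.33), against 1104 and 426 CPM (-1.37) in neuron-like cluster 4. The mutant level of cluster 10 rests on 45 UMIs. Its interval, 10.7 to 19.6 CPM, overlapped that of mutant macrophage-like cells, 4.62 to 16.5 CPM, and the part of free RNA was not tested.

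The mutant pool held both sexes, so its female-like and male-like cells came from different embryos. In muscle cluster 1, Dlk1 was 816.5 CPM in female-like control cells, 28.5 CPM in female-like mutant cells and 31.9 CPM in male-like mutant cells. In mesenchyme-like cluster 0 the values were 3947, 755 and 1118 CPM. In both clusters the low level was thus present in mutant cells of either sex. In cluster 8 the female-like and male-like mutant cells held 594 and 337 CPM, on either side of the 425 CPM in female-like control cells.

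Dlk1 was low in every phase of the cell cycle in mutant cluster 1, with 45.1 CPM in G1, 30.4 CPM in S and 34.6 CPM in G2M, against 563, 972 and 731 CPM in the control. Over all branchial muscle-like cells in G1 the values were 488.5 and 275 CPM, and most of those G1 cells, 176 of 273 in the control and 118 of 223 in the mutant, belonged to cluster 8.

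Meg3, the noncoding RNA made from the maternal copy of the same domain, was lower together with Dlk1 in some clusters, by less, and not in others (the plot of the chromosome 12 domain). In muscle cluster 1 it was 359 CPM in the control and 129 CPM in the mutant (-1.47, -1.55 to -1.40), and in cluster 7 it was 958 and 337 CPM (-1.51). In cluster 8 it was 1334 and 1499 CPM (0.17, 0.11 to 0.23). In mesenchyme-like cluster 0 it was 1488 and 728.5 CPM (-1.03), and in cluster 5 it was 432.5 and 386 CPM (-0.16). In neuron-like cluster 4 Dlk1 had a ratio of -1.37 and Meg3 of -0.15, and in mesothelium-like cells Dlk1 had -0.70 and Meg3 0.28 (0.15 to 0.41).

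Rian, a noncoding RNA further along the same maternal transcript region and chosen here after its values were seen, had log2 ratios of -1.52 in muscle cluster 1, -1.82 in cluster 7, -0.13 in cluster 8 and -1.07 in mesenchyme-like cluster 0. It was also the gene whose profile over the 14 class sums was most like that of Meg3 among 7354 genes (Pearson's r 0.975 on log2(CPM + 1), a description over sums that share 2 libraries). In neuron-like cluster 4 and mesothelium-like cells the Rian ratios were -0.03 and 0.32, so the domain's genes were lower together in muscle clusters 1 and 7, mesenchyme-like cluster 0 and neuron-like cluster 10, but not in every cluster with low Dlk1.

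EC-like cells also differed from this pattern. Meg3 there was 70.3 CPM in the control and 118 CPM in the mutant (0.75, 0.55 to 0.96), Rian 23.4 and 44.3 CPM (0.92), and the share of cells with a Meg3 UMI was 15.3% and 32.2%, above the macrophage-like shares of 3.19% and 4.88%. For all branchial muscle-like cells Meg3 was 569 and 366 CPM (-0.64) and for mesenchyme-like cells 1025 and 682.5 CPM (-0.59), both just past 1.5-fold. Within cells, Dlk1 and Meg3 counts of thinned mesenchyme-like cells had a Spearman's rho of 0.521 in 934 control cells and 0.433 in 614 mutant cells, the 4th and 2nd highest of 45 pairs. Other classes differed. In branchial muscle-like cells rho was -0.005 in the control and 0.230 in the mutant, ranked 24th and 5th. It was 0.210 and 0.074 in EC-like, 0.355 and 0.374 in neuron-like, and 0.286 and 0.043 in mesothelium-like cells.

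**Figure D4:**
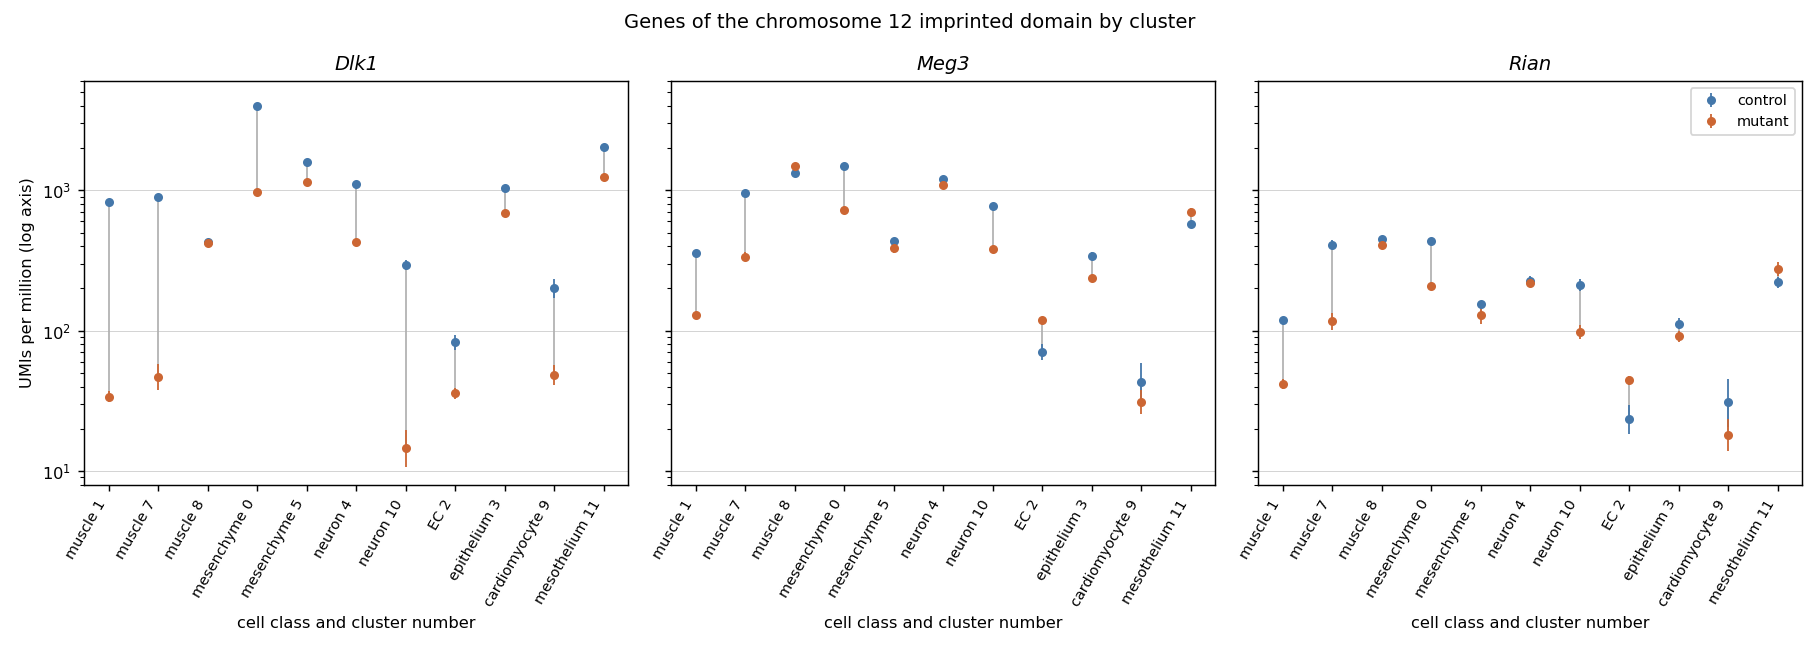
Levels (CPM, log axis) of Dlk1, Meg3 and Rian in 11 clusters of the compared classes, control in blue and mutant in orange, joined by a line, with exact Poisson 95% intervals. The long lines in muscle clusters 1 and 7 join 822 CPM of Dlk1 in the control to 33.8 CPM in the mutant and 890.1 to 46.9 CPM, while in muscle cluster 8 the points for Dlk1 coincide.

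Igf2 and its neighbour H19 were both higher in mutant epithelium-like cells. In epithelium-like cells Igf2 was 368 CPM in the control and 615.5 CPM in the mutant (0.74, 0.65 to 0.83), and H19 was 305 and 703 CPM (1.20, 1.11 to 1.30). The epithelium-like class also differed in makeup, since a cluster led by Gabrp and Krt6a held 9 control and 59 mutant cells and 1367 and 967 CPM of Igf2. In the largest epithelium-like cluster H19 was 301 and 528 CPM (0.81) and Igf2 349.9 and 514 CPM (0.56), the latter within 1.5-fold.

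In neuron-like cells Igf2 was 138 and 77.3 CPM (-0.84) and H19 92.8 and 53.6 CPM (-0.79), at shares of cells near the macrophage-like level. Erythroid-like cells held 102.3 and 75.62 CPM of Igf2 and 104.6 and 51.99 CPM of H19. The neuron-like intervals overlapped the erythroid-like ones for H19 in both libraries and for Igf2 in the mutant, but not for Igf2 in the control. The part of free RNA in these neuron-like levels was not tested. The H19 difference lay in neuron-like cluster 4 (-1.70), while cluster 10 held 90.1 and 91.3 CPM (0.02), and with classes from marker scores the H19 ratio of neuron-like cells was -0.20. In branchial muscle-like cells the Igf2 and H19 ratios were -0.11 and 0.02.

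EC-like cells held 967 CPM of Igf2 in the control and 646 CPM in the mutant (-0.58, -0.64 to -0.52), just inside the 1.5-fold limit, and 665 and 599 CPM of H19 (-0.15). These sums hid opposite differences in the pair of EC-like clusters found at resolution 0.8 (the plot of the EC-like clusters). In the larger, led by Aplnr and Emcn, Igf2 was 846 and 426 CPM (-0.99) and H19 605 and 333 CPM (-0.86). The smaller was led by Bmx and Gja4, genes of arterial endothelium, with 36 control and 144 mutant cells. Igf2 there was 1573 and 2420 CPM (0.62) and H19 902 and 2382 CPM (1.40). The smaller cluster also raised 4 of 7 smooth muscle markers, and its leading genes include Eln and Fbln5 of the vessel wall. The part of smooth muscle RNA in the difference was not tested. The pair of clusters holds more cells than the EC-like class, so some of these cells were placed in other classes at the lower resolution.

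**Figure D5:**
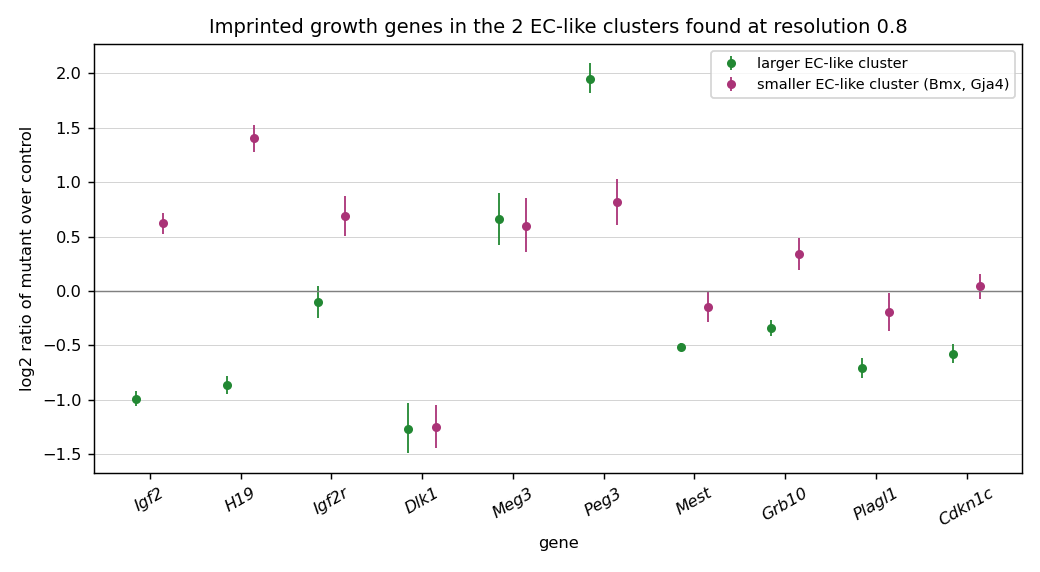
Log2 ratio of mutant over control for the 10 genes in the larger EC-like cluster (green, 126 control and 605 mutant cells) and the smaller one led by Bmx and Gja4 (purple, 36 and 144 cells), with conditional exact binomial 95% intervals. Igf2 and H19 lie below 0 in the larger cluster and above 0 in the smaller one, while Dlk1 and Peg3 lie on the same side in both.

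Of the 45 pairs among the 10 genes, Igf2 and H19 had the most similar levels over the 14 class sums (Pearson's r 0.941). In thinned single cells Spearman's rho of the pair was 0.627 in 144 control and 0.560 in 661 mutant EC-like cells, the highest of the 45 pairs in both libraries. It was also the highest pair in mesothelium-like cells of both libraries, at 0.589 and 0.528, but ranked 10th and 14th in neuron-like cells. Counts of these pairs share library and cell type, and cells within a class are not uniform, so the values are descriptions.

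Igf2r, the receptor that clears Igf2, was higher in mutant mesothelium-like cells, 150.0 CPM in the control and 357 CPM in the mutant (1.25, 1.04 to 1.47). Cardiomyocyte-like cells held 160.5 and 103 CPM of Igf2r (-0.64, -0.93 to -0.35), and the ratio was 0.02 without the cells of highest doublet score. In EC-like cells it was 202 and 224 CPM (0.15). Airn, which overlaps Igf2r on the other strand, had ratios of -1.28 in cardiomyocyte-like, 0.28 in mesothelium-like and -0.33 in EC-like cells, and its part in the Igf2r counts was not tested.

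By class, Grb10, the adaptor that dampens insulin and IGF receptors, was past 1.5-fold only in mesothelium-like cells. It was 643 CPM in the control and 1406 CPM in the mutant there (1.13, 1.02 to 1.23). In the other 6 classes its ratio lay between -0.24 in EC-like cells and 0.50 in cardiomyocyte-like cells. The neuron-like clusters differed in direction, with 172 and 289.5 CPM in cluster 10 (0.75, 0.56 to 0.94) and 267 and 218 CPM in cluster 4 (-0.30). The mesothelium-like class had 70 control and 65 mutant cells with median depths of 28114 and 14430 UMIs, and 21.8% of all genes tested in it were past the limit upward.

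The other genes of IGF signaling were followed in a list of 17, of which 12 reached 20 CPM in EC-like cells. There 3 were higher and 2 lower, where 7.29% of all genes were higher and 10.3% lower. The list median was 0.02 against -0.08 for all genes. Igf1, the second ligand, was 145.5 CPM in the control and 248 CPM in the mutant (0.77), and the binding proteins Igfbp2 and Igfbp3 were 61.4 and 146 CPM (1.25) and 315 and 860.3 CPM (1.45). Igfbp7, a protein of the endothelial matrix, was 207.5 and 67.0 CPM (-1.63), and Grb14, a relative of Grb10, 26.8 and 3.69 CPM (-2.86). Only genes of the list past 1.5-fold were named, so their ratios do not stand for the binding proteins as a group. Igfbp4 was 943.5 and 761.5 CPM (-0.31) and Igfbp5 99.6 and 115 CPM (0.21), both within 1.5-fold.

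In the other classes the counts of the IGF list were 4 higher and 1 lower of 12 in mesenchyme-like, 3 and 0 of 10 in branchial muscle-like, 3 and 1 of 12 in epithelium-like, 2 and 3 of 12 in neuron-like, 3 and 3 of 10 in cardiomyocyte-like, and 6 and 6 of 13 in mesothelium-like cells. In mesothelium-like cells 21.8% of all genes were higher and 11.0% lower, in cardiomyocyte-like cells 8.60% and 16.1%, and in the other 4 classes 4.37 to 6.69% were higher and 5.06 to 13% lower.

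Peg3, a zinc finger protein of the paternal copy, was the gene with the largest upward difference of the 10. In EC-like cells it was 165 CPM in the control (536 UMIs) and 581 CPM in the mutant (8036 UMIs), 3.52-fold higher (log2 ratio 1.81, 1.69 to 1.94). The share of EC-like cells with a Peg3 UMI at 5000 UMIs was 41.7% and 71.7%, against macrophage-like shares of 13.8% and 4.88%. Female-like control, female-like mutant and male-like mutant EC-like cells held 164, 509 and 632 CPM, so both mutant sexes lay above the control.

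At resolution 0.8 Peg3 was higher in both EC-like clusters, 158 and 612 CPM in the larger (1.95) and 325 and 574 CPM in the smaller (0.82). In the control, EC-like cells had the lowest Peg3 level of the 7 classes. Usp29, which is transcribed in the opposite direction from the same imprinted promoter region, was 11.7 and 33.5 CPM in EC-like cells (1.51, 1.04 to 2.03).

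Outside endothelium Peg3 went both ways. It was 796 and 407 CPM in epithelium-like cells (-0.97), 372 and 182 CPM in cardiomyocyte-like cells (-1.03) and 1341 and 2062 CPM in mesothelium-like cells (0.62). In branchial muscle-like and mesenchyme-like cells its ratios were -0.25 and -0.03. The mesenchyme-like value joins 2 clusters that differed in direction, with 1149 and 802 CPM in cluster 0 (-0.52) and 396 and 775 CPM in cluster 5 (0.97).

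Plagl1, a zinc finger protein that restrains cell division and binds imprinted loci, was lower in 3 classes and higher in 1. In mesenchyme-like cells it was 572 CPM in the control and 286 CPM in the mutant (-1.0015, -1.06 to -0.94), with the difference mostly in cluster 0, 756 and 286 CPM (-1.40), and little in cluster 5, 336 and 282 CPM (-0.25). EC-like cells held 491 and 315 CPM (-0.64) and neuron-like cells 88.9 and 56.4 CPM (-0.66). Both ratios stayed past 1.5-fold in 10 of 15 alternatives, against 15 of 15 for mesenchyme-like cells. They were -0.52 in EC-like cells with TMM scaling and -0.47 in neuron-like cells without the highest doublet scores. The share of cells with Plagl1 exceeded that of macrophage-like cells in 7 classes of the control and 6 of the mutant. In muscle cluster 7, its highest level of the control clusters, it was 1644 and 874 CPM (-0.91), and in muscle cluster 1 it was 507 and 360.0 CPM (-0.49, within 1.5-fold). Mesothelium-like cells went the other way, with 253.5 and 416 CPM (0.72).

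Mest, the hydrolase-like protein, stood past 1.5-fold in 1 class. In EC-like cells it was 2777 CPM in the control and 1982 CPM in the mutant (-0.49, -0.52 to -0.45), still the highest class of both libraries. In epithelium-like cells it was 226 and 431 CPM (0.93), and in cardiomyocyte-like cells 1040.3 and 717 CPM (-0.54). Mest was 1445 and 954 CPM in mesenchyme-like cluster 0 (-0.60, just past 1.5-fold) and 510 and 531 CPM in cluster 5 (0.06). In the smaller EC-like cluster it was 815 and 735 CPM, well below the 2998 and 2099.9 CPM of the larger.

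Cdkn1c, the p57 inhibitor of cyclin-dependent kinases, had its highest level in branchial muscle-like cells of both libraries. It was 5741 CPM in the control and 4261 CPM in the mutant there (-0.43, -0.44 to -0.42), a difference of less than 1.5-fold. The clusters came in the same order in both libraries: 9429 and 7489 CPM in cluster 8, 5319 and 3888 CPM in cluster 1 and 2019.1 and 1779 CPM in cluster 7.

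Cardiomyocyte-like cells held 406 CPM of Cdkn1c in the control and 1247 CPM in the mutant (1.62, 1.46 to 1.78), and neuron-like cells 502 and 777 CPM (0.63). At 5000 UMIs the median cardiomyocyte-like cell held 1 Cdkn1c UMI in the control and 5 in the mutant. The control value rests on 54 cells. When cells were classed by marker score without clustering, the ratio was -0.39, so it depends on which cells are called cardiomyocyte-like. In the G1, S and G2M cells of that cluster the mutant held 1573, 946 and 1110 CPM and the control 405, 412 and 403.5 CPM. The neuron-like clusters held 430 and 756.5 CPM in cluster 10 (0.82) and 561.5 and 790 CPM in cluster 4 (0.49, within 1.5-fold). The ratio of the whole neuron-like class stayed past 1.5-fold in 9 of 15 alternatives.

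The phase of the cell went with Cdkn1c in muscle cluster 1, where G1 cells held 7625 CPM, S cells 4886 CPM and G2M cells 5195 CPM in the control and 5978, 3488 and 3801 CPM in the mutant. In control EC-like cells it was 1037.5 CPM in G1, 412.5 CPM in S and 241 CPM in G2M. In mutant EC-like cells the same phases held 470.5, 345 and 605 CPM, so the G1 level was lower and the G2M level higher than in the control. Of the control EC-like Cdkn1c UMIs, 38.8% lay in 8 cells among those with the highest doublet scores, against 14.95% in 28 mutant cells, and these cells were part of the values by phase.

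Among 9 other cell cycle genes, 8 reached 20 CPM in EC-like cells. Of these 2 were higher and 2 lower, where 7.29% of all genes were higher and 10.3% lower. The inhibitors Cdkn1a, 21.9 and 101 CPM (2.21), and Cdkn1b, 35.5 and 60.3 CPM (0.77), were higher. Ccnd1, a G1 cyclin, 330.5 and 152 CPM (-1.12), and Mki67, a proliferation marker, 240.5 and 158.5 CPM (-0.60, just past 1.5-fold), were lower. The rest were within 1.5-fold: Ccnb1 (-0.32), Top2a (-0.30), Ccnd2 (-0.24) and Ccna2 (-0.01). In the other classes 1 and 0 of 7 were higher and lower in mesenchyme-like, 2 and 0 of 8 in branchial muscle-like, 2 and 2 of 8 in epithelium-like, 1 and 1 of 8 in neuron-like, 3 and 0 of 8 in cardiomyocyte-like, and 0 and 1 of 7 in mesothelium-like cells. In the same order of classes, the shares higher among all genes were 6.20%, 6.24%, 6.69%, 4.37%, 8.60% and 21.8%. The shares lower were 5.33%, 5.06%, 7.12%, 13%, 16.1% and 11.0%. Cdkn1c, a relative of both inhibitors, was 590 and 480 CPM (-0.30) in EC-like cells, and this ratio was 0.18 without the cells of highest doublet score.

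Of 49 other imprinted genes listed and counted, 21 reached 20 CPM in EC-like cells. Of these 5 were higher and 1 lower, where 7.29% of all genes were higher and 10.3% lower. Their median log2 ratio was 0.07 against -0.08 for all genes. The highest ratios belonged to Usp29, to Slc38a4, an amino acid transporter (17.3 and 46.5 CPM, 1.43), and to Zdbf2 (15.7 and 38.6 CPM, 1.29). The lowest belonged to Kcnq1ot1, the noncoding RNA that silences the paternal Cdkn1c domain (172 and 93.6 CPM, -0.88), to Copg2 (230.3 and 159 CPM, -0.54) and to Gnas (5485 and 3995 CPM, -0.46). In mesothelium-like cells 12 of 28 such genes were higher and 1 was lower, where 21.8% of all genes were higher and 11.0% lower. The counts higher and lower were 1 and 8 of 28 in neuron-like, 5 and 3 of 26 in mesenchyme-like, 1 and 6 of 27 in branchial muscle-like, 1 and 2 of 23 in epithelium-like, and 2 and 6 of 21 in cardiomyocyte-like cells. The shares lower among all genes were 13% in neuron-like, 5.33% in mesenchyme-like, 5.06% in branchial muscle-like, 7.12% in epithelium-like and 16.1% in cardiomyocyte-like cells. In the same order of classes, the shares higher among all genes were 4.37%, 6.20%, 6.24%, 6.69% and 8.60%.

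By the likeness of levels over the 14 class sums, the genes nearest to Igf2 were H19 and Kank2 (r 0.941 and 0.936), nearest to H19 were Parva and Wtip (0.946 and 0.944), and nearest to Igf2r were Kank2 and Igf2 (0.949 and 0.912). Those nearest to Dlk1 were Gria3 and Pcdh11x (0.901 and 0.898), to Peg3 Wnt5b and Tgfb3 (0.922 and 0.890), to Mest Rab12 and Cavin2 (0.915 and 0.907), to Grb10 Zbed3 and Actn1 (0.954 and 0.919), to Plagl1 Kank2 and C430049B03Rik (0.910 and 0.898), and to Cdkn1c Ipo4 and Nap1l1 (0.943 and 0.924). Numbl followed Rian for Meg3 (0.968). Of these 20 nearest genes, 2 were members of the set, H19 for Igf2 and Igf2 for Igf2r.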

How the data were processed

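Each sample was a 10x Genomics 5′ single-cell RNA library of sorted eYFP+ cells from pooled embryos. The authors aligned and counted the reads with Cell Ranger 7.1.0, and the deposited values are raw UMI counts per gene and cell. Whether introns or strand entered the counting is not given in the sources used here. Cells with 2001 to 8999 genes and under 10% mitochondrial UMIs were kept. Counts were clustered with Seurat 5.3.0 in R 4.3.3 (2000 variable genes without 85 listed genes, cell cycle scores from 43 S and 54 G2M genes regressed out, 30 components, 20 neighbours, resolution 0.3, 15 clusters) after anchor-based integration of the libraries, while all values come from the raw counts. Clusters were named from marker lists, and macrophage-like and erythroid-like cells from clusters at resolution 0.8. Doublets were kept, and doublet scores (scanpy 1.11.5) were used only as a check.

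Counts were summed per library and class as CPM with exact Poisson 95% intervals. Ratios have conditional exact binomial intervals and shares Clopper-Pearson intervals. A gene was past 1.5-fold when the interval excluded 0 and the level reached 20 CPM in at least 1 library. For shares of cells, each cell was thinned to 5000 UMIs, leaving out 61 control and 173 mutant shallower cells. With 1 library per genotype nothing was tested across samples, and intervals cover counting error only. The scripts were tested on simulated data. All 10 members are named, and of the other imprinted genes the 3 highest and 3 lowest ratios in EC-like cells. Members and lists were chosen with earlier results of these data known. Promoters came from RefSeq (GRCm38.p6) and positions from GENCODE (GRCm38). Alternatives were other filters, clusterings, scalings (TMM, edgeR 4.0.16) and subsets of cells. Intervals were computed with scipy 1.17.1 in Python 3.11.15, with tables held in pandas 2.3.3 over numpy 2.4.6, and matplotlib 3.10.9 drew the plots.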

Additional observations from a re-analysis of the deposited data

Results flagged for a closer look

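For 6 of the genes the mutant library was past 1.5-fold higher in 1 class and past 1.5-fold lower in another. By class, 4.37 to 21.8% of all genes tested were higher and 5.06 to 16.1% lower. How many of all genes went both ways was not counted, so these 6 genes are not shown to be unusual. With 1 library per genotype the difference between the classes was not tested. Igf2 had a log2 ratio of 0.74 in epithelium-like and -0.84 in neuron-like cells. H19 had 1.20 and -0.79 in the same classes, and the neuron-like shares of cells with either gene were not above the macrophage-like interval. Igf2r had 1.25 in mesothelium-like and -0.64 in cardiomyocyte-like cells, the latter 0.024 without the highest doublet scores. Meg3 had 0.75 in EC-like and -0.64 in branchial muscle-like cells. Peg3 had 1.81 in EC-like and -1.03 in cardiomyocyte-like cells. Plagl1 had 0.72 in mesothelium-like and -1.0015 in mesenchyme-like cells.

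Outside the compared classes, the 47 hepatoblast-like cells of the mutant library held 4609 CPM of Dlk1, and the control library had 0 such cells, so no ratio exists.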

How the results depend on the processing

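No paired analysis was possible because each genotype has 1 library, and no replicate could be left out. The count of gene and class pairs past 1.5-fold upward, 11, was 7 with classes from marker scores of single cells and 7 with G1 cells alone. The downward count, 18, ran from 14 to 22 over the alternatives. Of the 29 pairs past 1.5-fold, 21 to 29 stayed past it in the same direction. Ratios changed sign for Mest in epithelium-like cells in G1 (-0.024), for Igf2r in cardiomyocyte-like cells without the highest doublet scores (0.024), and with marker-score classes for Cdkn1c in cardiomyocyte-like (-0.39) and Peg3 in mesothelium-like cells (-0.0076). Below 1.5-fold, Cdkn1c in EC-like cells turned from -0.30 to 0.18 without the highest doublet scores. The cause was not tested. The Dlk1 ratio was below 0 in all 7 classes under every alternative run and past 1.5-fold in 6 or 7 of them. It was -0.48 in epithelium-like cells with a single sex call and -0.497 in cardiomyocyte-like cells that were female-like. The latter rests on 11 control and 12 mutant cells, and 43 of the 54 control cardiomyocyte-like cells had no sex call. Those 11 cells held 168 of the 174 control Dlk1 UMIs. In branchial muscle-like cells the Dlk1 ratio ran from -4.60 in the largest cluster to -0.83 in G1 cells, most of which belong to the differentiating cluster. In EC-like cells it ran from -3.44 to -0.42. The lower end in EC-like cells was for female-like cells alone and the upper end for clustering without integration. Meg3 in branchial muscle-like cells was -0.05 in G1 cells. Peg3 in EC-like cells ran from 1.62 to 2.00. TMM scaling moved the median of all genes by 0.12 in EC-like, 0.11 in neuron-like, 0.15 in cardiomyocyte-like and -0.12 in mesothelium-like cells. The subset of cells with a single sex call was chosen after seeing the data. Cardiomyocyte-like and mesothelium-like values rest on few cells.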

Other observations

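The hepatoblast-like cells of the mutant library, led by Alb and Afp, held 1137 CPM of Igf2, 1685 CPM of H19, 760.3 CPM of Meg3 and 1139 CPM of Cdkn1c, and the Dlk1 level above. Smooth muscle-like cells, with 38 control and 25 mutant cells and so under the minimum for comparison, held 545 and 1111 CPM of Igf2, 338 and 914.5 CPM of Peg3 and 533 and 1122 CPM of Cdkn1c. Neural crest-like cells, with 53 and 23 cells, held 235.5 and 258 CPM of Dlk1 and 425 and 751.5 CPM of Cdkn1c.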
